A study of Mus musculus with 41 samples.

Results

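The regions described here are stretches of chromatin that carried H3K18la, lactylation of lysine 18 of histone H3, in mouse embryonic stem cells (mESC) and lay away from promoters. They were selected on H3K18la peaks alone. A region was a H3K18la peak of serum-grown mESC (mESC-ser) that shared at least 1 bp with a H3K18la peak of mESC in 2i medium (mESC-2i). It overlapped no H3K18la peak of 6 differentiated cell types or tissues and lay more than 2000 bp from every annotated transcription start site (TSS). On chromosomes 1 to 19, 3567 of the 18762 mESC-ser H3K18la peaks met this rule, which was 19.01% of all and 37.6% of the 9484 distal ones.

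The profiles come from CUT&Tag, in which an antibody against a histone post-translational modification (hPTM) directs a transposase to tag the DNA beside it, and the labels list 41 samples in 24 groups of 1 or 2. Both mESC groups were the E14 line, grown in serum-lif (mESC-ser) or 2i-lif (mESC-2i, with inhibitors of MEK and GSK3), and were tagged as whole cells. The other groups were of strain C57BL/6 and tagged as nuclei. Gastrocnemius muscle (GAS) and macrophages sorted from calf muscle 2 days after hindlimb ischemia (PIM) came from female mice 8 to 12 weeks old. White adipocytes (ADIPO) were nuclei of adipose tissue from 10-week-old female AdipoCre-NuTRAP mice, bound to streptavidin beads. Bone marrow-derived macrophages (BMDM) were cultured 7 days with M-CSF, and myotubes (MT) were primary myoblasts (MB) differentiated for 3 days. All buffers held 5 mM sodium butyrate, an inhibitor of histone deacetylases. The authors pooled replicates before peak calling, so each group has 1 peak list and the spread between replicates cannot be measured. Tests were therefore run over cell types, and intervals of shares are 95% Wilson intervals that cover counting error only.

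Marker promoters were read to check the labels. H3K18la was called over 5 of 5 stem cell promoters (Pou5f1, Nanog, Sox2, Esrrb and Zfp42) in both mESC lists and over 0 of 5 in each of the 6 other lists. Macrophage markers were called 5 of 5 times in BMDM and PIM, adipocyte markers 5 of 5 times in ADIPO, and muscle markers 4 of 5 times in GAS and 5 of 5 in MT. MB had 2 of 5, Myod1 and Myh1. Markers of other cell types were called too, such as Csf1r and Spi1 in GAS and MT, Acta1 in ADIPO, 3 of 5 adipocyte markers in PIM, and the macrophage marker Cd68 in both mESC lists (1 of 5). Their part in the results was not tested.

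Distal regulatory elements, or enhancers, are bound by transcription factors and act on promoters over a distance. Active ones usually carry H3K27ac, promoters carry H3K4me3, and H3K27me3 is laid down by Polycomb repressive complex 2 over silenced developmental genes. In mESC the factors OCT4 (from Pou5f1), SOX2 and NANOG form the core of the pluripotency network. KLF4, KLF5, ESRRB, TFCP2L1, TBX3 and PRDM14 belong to its naive part, the part that 2i medium favours.

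DNA under the regions is shown first, because sequence was not used by the rule. For each region a window of 300 bp was centred on the stretch of maximum H3K18la signal and read from the RefSeq sequence of GRCm38, the mm10 assembly. Exact words known from the binding sites of stem cell factors were searched for on both strands: the octamer ATTTGCAT, a pair of SOX and POU words, TTGT and ATGCAAA, with 1 base between them, the ESRRB word TCAAGGTCA, the KLF words GGGTGTGG and GGGCGTGG, and the STAT words TTCCAGGAA, TTCCCGGAA, TTCCGGGAA and TTCCTGGAA. The octamer overlaps the second part of the pair in letters. Windows of 5 genes were chosen by a rule given under processing, each the window with the largest maximum signal among the regions nearest to a pluripotency gene. Those of Tbx3 and Zfp42 held none of these words. The windows of Mycn, Klf5 and Sox2 held 1 each, capitals marking the word (octamer, KLF on the reverse strand, and STAT). The last window holds the SOX and POU pair, which 14 windows held, with the octamer on the reverse strand running 1 base beyond it, and a KLF word before it.
nearest to Mycn, chr12:12803628-12803927, plus strand: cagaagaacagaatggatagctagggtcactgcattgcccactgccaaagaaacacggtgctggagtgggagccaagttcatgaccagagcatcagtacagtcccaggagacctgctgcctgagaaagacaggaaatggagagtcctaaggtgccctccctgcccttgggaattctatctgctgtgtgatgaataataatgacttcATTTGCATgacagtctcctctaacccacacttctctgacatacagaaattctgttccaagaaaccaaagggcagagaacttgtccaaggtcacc
nearest to Klf5, chr14:99283723-99284022, plus strand: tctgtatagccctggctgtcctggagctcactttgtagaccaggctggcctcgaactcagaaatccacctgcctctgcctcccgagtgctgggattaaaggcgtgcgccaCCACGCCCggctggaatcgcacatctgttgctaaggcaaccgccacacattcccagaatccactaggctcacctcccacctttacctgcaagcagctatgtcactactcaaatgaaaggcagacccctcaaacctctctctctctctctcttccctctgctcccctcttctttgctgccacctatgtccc
nearest to Sox2, chr3:34745248-34745547, plus strand: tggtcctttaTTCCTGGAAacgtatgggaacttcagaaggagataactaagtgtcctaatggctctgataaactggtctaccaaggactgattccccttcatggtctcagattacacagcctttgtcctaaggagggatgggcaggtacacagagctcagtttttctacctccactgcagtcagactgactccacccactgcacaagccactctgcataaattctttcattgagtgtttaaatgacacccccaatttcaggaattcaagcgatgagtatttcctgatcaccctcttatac
SOX and POU pair, nearest to 5730522E02Rik, chr11:26103775-26104074, plus strand: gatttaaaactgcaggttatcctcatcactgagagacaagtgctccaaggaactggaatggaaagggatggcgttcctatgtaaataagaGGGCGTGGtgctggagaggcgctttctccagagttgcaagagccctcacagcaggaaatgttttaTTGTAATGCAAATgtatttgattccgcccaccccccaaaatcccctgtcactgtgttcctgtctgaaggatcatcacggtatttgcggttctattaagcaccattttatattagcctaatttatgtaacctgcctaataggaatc
Of the Klf5 window, 72% is marked as repeat in the genome file. The Sox2 and Mycn windows hold no masked base. A match describes letters and is no evidence that a factor was bound.

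The octamer, the SOX and POU pair, and the ESRRB and KLF words were more frequent under the regions than under distal H3K18la peaks of each differentiated type, which did not hold for the STAT words. The octamer was in 117 of 3567 windows (3.28%, interval 2.74 to 3.92). Among all distal H3K18la peaks of the 6 differentiated types, its share ran from 1.07% in GAS to 1.77% in BMDM. The SOX and POU pair was in 14 windows (0.392%, 0.234 to 0.658), against at most 0.0376% in a differentiated type, in BMDM. The STAT words were in 1.40% of windows and in 0.933% (PIM) to 1.68% (ADIPO) of those of differentiated types. ESRRB words were in 2.94% of windows and KLF words in 12.9%, against 0.529% to 0.946% and 3.57% to 6.29% in the differentiated types. The AP-1 word TGANTCA was in 11.4% of windows, near the 11.6% of ADIPO and 14.2% of GAS and below the 29.2% to 58.2% of the other 4 types. The PU.1 word GAGGAAGT, of a factor of macrophages, was in 3.36% of windows, in 10.9% of BMDM and 8.95% of PIM windows, and in 2.01% to 3.11% of those of the other 4 types.

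The other classes of distal mESC-ser peaks were read in the same way. Distal mESC-ser peaks without a peak in mESC-2i or a differentiated type (mESC-ser only, 1560 peaks) held the octamer in 2.88% of windows (2.16 to 3.84) and the ESRRB word in 2.63%. Distal peaks shared with at least 1 differentiated type (4357 peaks) held them in 2.39% (1.97 to 2.88) and 3.01%. The SOX and POU pair was in 0.321% (0.137 to 0.748) and 0.115% (0.0490 to 0.268) of their windows. The KLF share was highest in the shared peaks, at 14.6%. The STAT word was in 1.40%, 0.962% and 1.38% of windows of the 3 classes, the TEAD word GGAATG in 22.9%, 21.2% and 20.2%, and the E-box CAGCTG in 17.3%, 18.2% and 21.8%. Distal peaks called in mESC-2i alone (3064) held the octamer more often than the regions, in 4.80% of windows (4.10 to 5.61). They held the pair in 0.228%, the ESRRB word in 2.61% and the KLF words in 13.5%. H3K27ac was found at 34.2% of the regions with an octamer (26.2 to 43.2) and at 35.0% of all of them. For the KLF and AP-1 words it was at 30.2% (26.1 to 34.5) and 29.3% (25.1 to 33.9), and for the ESRRB word at 33.3% (25.0 to 42.8).

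**Figure D1:**
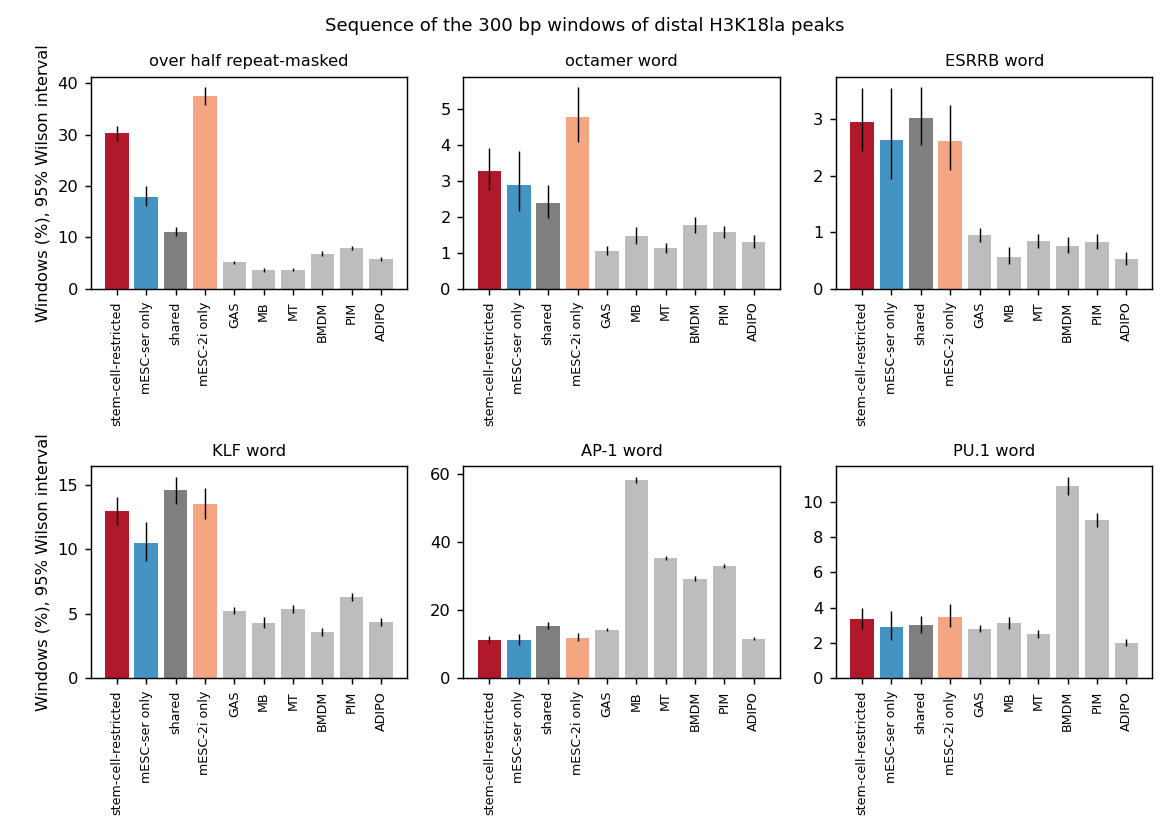
Share of 300 bp windows (y axes, %) that were more than 50% repeat-masked or held a word of the octamer, ESRRB, KLF, AP-1 or PU.1, for 4 classes of distal mESC peaks and all distal H3K18la peaks of 6 differentiated types (x axes). Bars are shares with 95% Wilson intervals. Repeat-masked windows reached 30.2% in the stem-cell-restricted regions and at most 7.90% in a differentiated type.

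Repeats were read under the same windows. The genome file writes repeats in lower case (soft-masked), and 33.5% of the called bases of chromosomes 1 to 19 were masked. Of the regions, 1078 (30.2%, 28.7 to 31.7) had a window with more than 50% masked bases. The share was 17.9% (16.1 to 19.9) in the mESC-ser-only peaks and 11.1% (10.2 to 12.1) in the shared peaks. Over whole peaks in place of windows these shares were 16.1%, 9.23% and 3.47%. It was higher, at 37.5% (35.8 to 39.2), in the 3064 distal peaks called in mESC-2i alone. Distal H3K18la peaks of differentiated types ranged from 3.73% in MT to 7.90% in PIM. The mean masked share of a window, 33.9% in the regions, was thus close to that of the genome, while H3K18la peaks of differentiated types lay well below it, at 11.4% to 16.4%. How reads that match several places were handled is not given in the sources used here beyond the aligner's settings, and its part in these shares was not tested.

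H3K27ac did not separate regions with a masked window from the rest at this number. It was called at 36.1% of them (33.3 to 39.0) and at 34.6% of the other 2489 (32.7 to 36.5). Their median maximum signal was 80 against 67, and their median width 2533 bp against 2990 bp. H3K27me3 of mESC-ser was called at 4.92% (3.78 to 6.37) against 8.32% (7.29 to 9.47).

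Some masked windows shared exact words of 20 bases. The 20-base word found in the most windows occurred in 77 of them, and 91 windows on 19 chromosomes held that word or one that travelled with it. In all, 5 such groups of windows were drawn in turn, each leaving out the windows of those before it. Stretches of 80 bp around the leading word are shown for the 5 regions of the first group with the largest total signal on different chromosomes, and for 1 region each of groups 2, 3 and 5. They are written on the strand of the word, which stands in capitals, and were picked for holding it. The gene given is the nearest protein-coding one, from 6356 bp (Ifitm7) to 110385 bp (Dpp6) and 425944 bp (Magi2) away.
near Mrps31, chr8:22427067-22427146, minus strand: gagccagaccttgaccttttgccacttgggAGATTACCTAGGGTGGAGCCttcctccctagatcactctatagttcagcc
near Mrps24, chr11:5694687-5694766, minus strand: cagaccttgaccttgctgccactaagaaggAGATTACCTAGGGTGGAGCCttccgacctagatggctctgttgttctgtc
near Fcrl5, chr3:87478656-87478735, plus strand: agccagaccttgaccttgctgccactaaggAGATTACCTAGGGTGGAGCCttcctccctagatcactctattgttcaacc
near Magi2, chr5:18799807-18799886, minus strand: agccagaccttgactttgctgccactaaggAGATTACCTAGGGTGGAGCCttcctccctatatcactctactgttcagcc
near Tmprss12, chr15:100269897-100269976, plus strand: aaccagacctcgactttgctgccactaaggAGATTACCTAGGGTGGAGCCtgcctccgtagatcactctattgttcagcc
family 2 near Dpp6, chr5:26703940-26704019, minus strand: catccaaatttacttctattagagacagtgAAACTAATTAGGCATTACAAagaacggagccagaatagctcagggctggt
family 3 near 4930505A04Rik, chr11:30444461-30444540, plus strand: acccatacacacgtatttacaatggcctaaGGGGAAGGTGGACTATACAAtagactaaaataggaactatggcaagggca
family 5 near Ifitm7, chr16:13976544-13976623, minus strand: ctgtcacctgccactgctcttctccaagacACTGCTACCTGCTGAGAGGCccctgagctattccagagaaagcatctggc
The 5 stretches of the first group were 62.5% to 95% identical position by position over all 80 bp. This includes the 20-base word, which all 5 hold by choice, so part of the identity was fixed in advance. The group's word was in 2.16% of the windows of the regions, where it was picked, and in 0.192% of mESC-ser-only and 0.115% of shared windows. Of its 334 copies on chromosomes 1 to 19, all of them masked, 87 lay in a region (26.0%) and 165 in a mESC-2i H3K18la peak (49.4%). Counted separately, 14 (4.19%) lay in a H3K18la peak of a differentiated type, and copies in both kinds of peak were not counted apart. The words were picked in windows of regions that by rule overlap a mESC-2i peak and no peak of a differentiated type, so these shares and those of the other groups are descriptions.

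The other groups differed in how many of their copies carried the mark. The word of group 2 had 282 copies, of which 81 lay in a region (28.7%) and 11 in a peak of a differentiated type. Group 3 had a word with 695 copies, 8.49% of them in a region and 44.6% in a mESC-2i peak, and its regions carried H3K27ac least often, at 10.6% (5.23 to 20.3) against 36.3% (27.1 to 46.5) in the first group. The word of group 5 had 415 copies, 18.6% of them in a region. The word of group 4 was a common one with 74735 copies, 1.17% in a region and 13.4% in a peak of a differentiated type. The families to which these words belong are not named here because no repeat annotation was used.

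The H3K18la signal that chose the regions spanned nearly the whole list. Total signal is the fragment coverage summed over a peak and maximum signal its highest point, both unscaled and compared within 1 list only. Total signal ran from 23826 to 1555581 with a median of 44774, which is percentile 48.5 of the mESC-ser list. Width ran from 197 bp to 30587 bp with a median of 2836 bp, and together the regions covered 12.2 Mb. Median width was 2481 bp in mESC-ser-only and 3279 bp in shared distal peaks. The median maximum signal was 71, 54 and 64 in the 3 classes.

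The regions sat well inside the mESC-2i peaks. A total of 2592 (72.7%) were wholly covered by them, and 72 (2.02%) were covered by less than 50%. The mESC-2i peaks were the wider ones, with a median of 5354.5 bp for the 3322 that touched a region. Of the regions, 646 touched a mESC-2i peak that itself reached a promoter, and 661 touched one that reached a H3K18la peak of a differentiated type. The rank of a region in mESC-ser and of its mESC-2i peak were related only loosely, with a Spearman rho of 0.298 across 3567 regions that share both libraries and differ in width.

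Near the limits of the rule, the regions closest to a TSS lay 2006, 2015 and 2016 bp away, and the closest excluded peaks 2000, 1998 and 1998 bp. The smallest overlaps with mESC-2i were 8, 36 and 61 bp. The nearest peaks of a differentiated type lay 1, 4 and 10 bp from a region, and the smallest overlaps that led to exclusion were 1, 12 and 16 bp. A H3K18la peak of another type lay within 5 kb of 1096 regions (30.7%). Among distal peaks that also had a mESC-2i peak, GAS alone excluded 410, MT 269, ADIPO 224, PIM 194, and MB and BMDM 25 each.

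H3K27ac was the mark most often called at the regions in mESC-ser. It overlapped 1250 of them (35.0%, 33.5 to 36.6), where 32.5% of all 9484 distal mESC-ser H3K18la peaks did. The share was near that of the shared peaks, 35.9% (34.5 to 37.3), and above that of the mESC-ser-only peaks, 17.4% (15.6 to 19.4). H3K4me3 overlapped 7.06% of the regions in mESC-ser (background 7.41%) and 22.8% in mESC-2i (background 19.5%). H3K27me3 overlapped 7.29% in mESC-ser (background 8.94%) and 2.89% (2.39 to 3.49) in mESC-2i (background 7.34%). In mESC-2i the mESC-ser-only peaks had H3K27me3 at 14.7% and H3K4me3 at 5.26%, and the shared peaks 8.33% and 21.9%. By rule every region overlaps a mESC-2i H3K18la peak, while the background includes peaks without one. The rule thus enters the contrasts of mESC-2i with the background, and they are descriptions. The mESC-ser H3K27ac list rests on 1 sample, and a H3K27ac list of mESC-2i was not analysed here.

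Most regions, like most distal mESC-ser peaks, carried none of the 3 other marks in mESC-ser. That was so for 2122 of them (59.5%, 57.9 to 61.1, background 60.5%), whose median width was 2562.5 bp. H3K27ac alone was called at 1000 (28.0%, background 25.0%), H3K27ac with H3K4me3 at 177 (4.96%, background 5.23%) and H3K27me3 alone at 167 (4.68%, background 5.86%). All 3 marks were called at 47 (1.32%, background 1.09%) and H3K4me3 alone at 8 (0.224%, background 0.327%). H3K4me3 was called at 228 regions in both media (6.39%, background 6.35%), at 24 in mESC-ser only (0.673%, background 1.06%) and at 585 in mESC-2i only (16.4%, background 13.1%). H3K27me3 was called at 67 in both media (1.88%, background 3.99%), at 193 in mESC-ser only (5.41%, background 4.96%) and at 36 in mESC-2i only (1.01%, background 3.35%). The H3K4me3 lists covered 40.3 Mb in mESC-ser and 48.6 Mb in mESC-2i, and the H3K27me3 lists 84.9 Mb and 144.1 Mb. The part of list size in these counts was not tested, and the rule enters those of mESC-2i as said above.

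**Figure D2:**
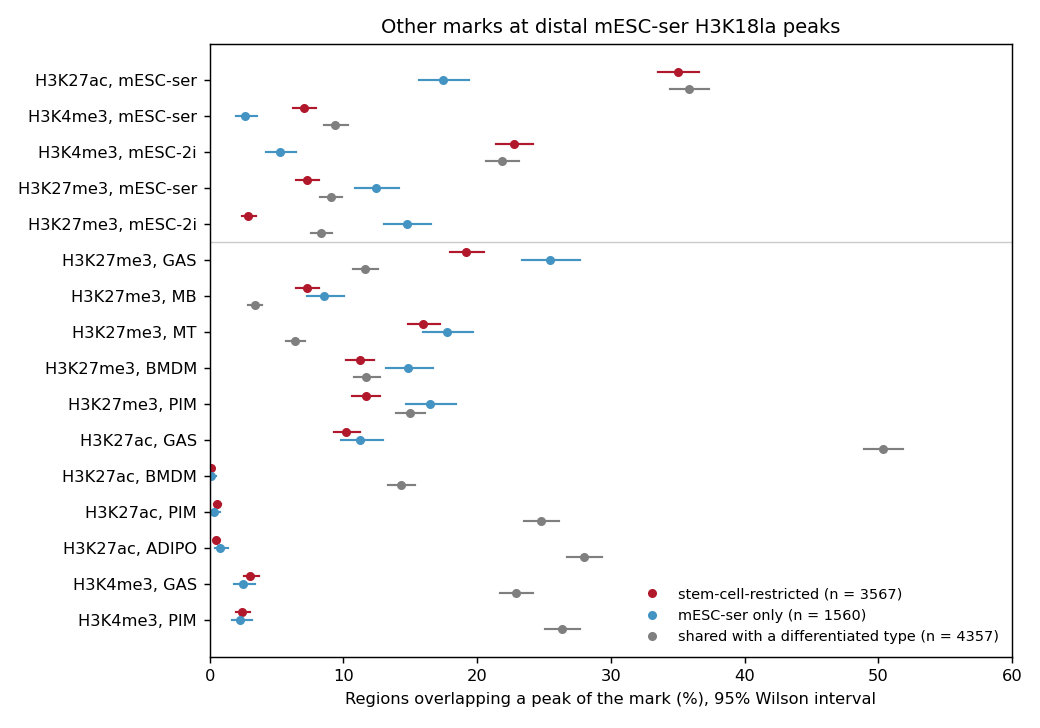
Share of distal mESC-ser H3K18la peaks that overlapped a peak of another mark (x axis, %) for 16 lists (y axis), with points for the 3 classes and bars for 95% Wilson intervals. H3K27ac of mESC-ser was at 35.0% of stem-cell-restricted regions, while H3K27ac of BMDM, PIM and ADIPO was at less than 1% of them.

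The share with H3K27ac rose with the H3K18la signal of the region. When the regions were ordered by total signal and divided into 4 groups of 891 or 892, H3K27ac was called at 12.3%, 19.2%, 36.6% and 72.1% from the lowest to the highest. Median width rose along with it, from 2016.5 to 5381 bp, and its part in the rise was not tested. H3K27me3 of mESC-ser stayed between 7.06% and 7.62% in the same groups. Within the same bounds of signal, the mESC-ser-only peaks had H3K27ac at 10.3%, 17.7%, 27.6% and 51.2%, and the shared peaks at 10.2%, 19.5%, 30.8% and 71.4%. The intervals of the 3 classes overlapped in the lower 2 groups. In the highest group the regions lay above the mESC-ser-only peaks, of which 82 were that strong, and close to the shared peaks.

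**Figure D3:**
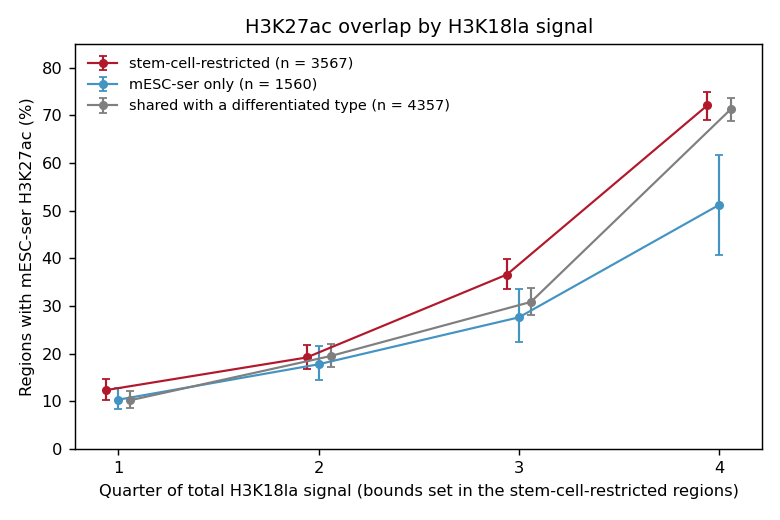
Share of regions with mESC-ser H3K27ac (y axis, %) by group of total H3K18la signal (x axis), with bounds set in the stem-cell-restricted regions. Points are shares, bars are 95% Wilson intervals and colours are the 3 classes, and all 3 rise with signal, from 12.3% to 72.1% in the stem-cell-restricted regions.

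In differentiated cells the regions were nearly free of H3K27ac except in GAS. H3K27ac was called at 0.112% of them in BMDM (4 regions), 0.533% in PIM, 0.477% in ADIPO and 10.2% in GAS. The matching shares of all distal mESC-ser peaks were 6.64%, 11.6%, 13.2% and 28.8%. The GAS list covered 196.4 Mb, against at most 53.8 Mb for the other 3, and the part of list size was not tested. H3K4me3 was called at 3.06% in GAS and 2.44% in PIM (background 12.1% and 13.4%). Since regions with H3K18la in these cells were removed by the rule, low shares of the active marks were to a degree fixed by the choice. Compared with the mESC-ser-only peaks, which meet the same exclusion, H3K27ac differed by a mean of -0.29 percentage points (SD 0.549 over 4 cell types, lower in 3 of 4). The difference was -1.05 points in GAS, -0.29 in ADIPO, -0.016 in BMDM and 0.212 in PIM, and the mean was -0.03 when the GAS H3K18la list was left out of the rule. Flipping the signs of the differences in an exact permutation test, two-sided, gave p = 0.375, where 4 cell types allow no value under 0.125.

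The share of regions with H3K27me3 in differentiated cells lay above that of all distal mESC-ser peaks in GAS, MT and MB and below it in PIM and BMDM. It was 19.2% in GAS, 16.0% in MT, 11.7% in PIM, 11.2% in BMDM and 7.29% in MB. All distal mESC-ser peaks had 16.8%, 11.9%, 14.0%, 12.1% and 5.70% in the same order. At least 1 of the 5 types had H3K27me3 at 1066 regions (29.9%, background 29.1%), at least 3 had it at 364 (10.2%, background 8.73%), and all 5 at 105 (2.94%, background 2.06%). The mean over the 5 types was 13.1% in the regions and 16.6% in the mESC-ser-only peaks, a difference of -3.56 percentage points (SD 2.07, lower in 5 of 5). The same exact permutation test gave p = 0.0625, the smallest value that 5 cell types allow, so the design cannot reach 0.05. The share of the regions with H3K27me3 was also set against that of all distal peaks as a log2 ratio, which averaged -0.82 in the 2 mESC types and 0.12 in the 5 others. All distal peaks include those without a mESC-2i H3K18la peak and those with H3K18la in differentiated cells, so the rule itself enters this contrast and it is given as a description. In the differentiated types the ratio was above 0 in GAS, MB and MT and below 0 in BMDM and PIM.

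The regions lay farther from genes than the shared peaks and at about the distance of the mESC-ser-only peaks. The median gap to the nearest TSS of a protein-coding gene was 21092 bp (interval 19790 to 22451), against 20663 bp (19023 to 22630) in mESC-ser-only and 16082 bp in shared peaks. Of the regions, 17.6% lay more than 100 kb away and 29.0% within 10 kb. The mESC-ser-only peaks had 14.6% and 30.6%, and the shared peaks 7.51% and 34.9%. They overlapped an annotated gene in 46.1% of cases (44.5 to 47.8), an exon in 17.6%, and introns only in 28.5%. The mESC-ser-only and shared peaks overlapped a gene in 52.2% and 55.6%. Chromosome 11 held the most regions, 360 (10.1%), as it held 11.2% of all mESC-ser H3K18la peaks.

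Of 20780 protein-coding genes, 2415 (11.6%) were nearest to at least 1 region, and 1726 of these to exactly 1. At 50 genes the count was 5 or more. Sall1, a zinc finger repressor needed for kidney formation, led with 12 regions, from 6561 to 92003 bp from its TSS. Of its regions, 9 carried H3K27ac and none H3K27me3 in mESC-ser, and H3K27me3 was called at 9 of them in at least 1 differentiated type. When all annotated genes could be nearest, the gene Mir8110 took 8 of these 12 regions and led instead. Tfap2c, the AP-2 gamma gene of the placenta and germ line, had 11 regions, 7 of them with H3K27me3 in mESC-ser and 2 with H3K27ac. In mESC-ser the leading pair of genes thus differed in the mark called at most of their regions.

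The next genes were 5730522E02Rik with 9 regions, Rpl38, a ribosomal protein gene, and Tbx3, a T-box factor, with 8 each, and Mgat5b, Grik3 and Mycn with 7. Smarcad1, a chromatin remodeller, and Ttc29 had 6, a count shared with genes of less summed total signal, among them Akap12 and Sox1. The regions of 5730522E02Rik, Mycn and Smarcad1 carried no H3K27me3 in mESC-ser, and 3, 3 and 2 of them carried H3K27ac. The regions of Rpl38 lay 55466 to 194762 bp from its TSS.

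Most of the listed naive pluripotency genes had a region. On these chromosomes 11 of the 14 were nearest to at least 1 region, 30 regions in all, where 11.6% of all genes were. Tbx3 had 8, Klf5 and Zfp42 5 each and Prdm14 3. Esrrb had 2, both in its introns, and Klf4 and Tfcp2l1 had 1 each, 68402 and 58625 bp away. H3K27ac was called at 8 of the 30 (26.7%), against 35.0% of all regions. Zfp42, which encodes the stem cell marker REX1, had 3 of 5 regions under H3K27ac and total signals of 47801, 61935, 122041, 302520 and 81935 along the chromosome. None of its 5 regions had H3K27me3 in any of the 5 differentiated types.

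Among core pluripotency genes, 4 of 12 had a region (33.3%, against 11.6% of all genes). Mycn, a MYC family factor, had 7 and Sox2 had 4, while Sall4 and Dppa2 had 1 each. Pou5f1 and Nanog were nearest to none. Within 100 kb of their annotated starts, mESC-ser had 10 and 13 H3K18la peaks, of which 1 each met the rule, 4 and 5 were distal and shared with a differentiated type, and 5 and 7 reached a promoter. The region in the range of Nanog is nearest to Slc2a3, a glucose transporter gene, and lies 76171 bp from Nanog. Around Sox2, by contrast, 4 of 8 peaks met the rule and none was shared.

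The Sox2 regions all lay downstream of the gene (chromosome 3, 34650405 to 34652461). Their gaps to the Sox2 TSS were 36027, 40608, 61140 and 82125 bp and their total signals 49925, 163157, 34893 and 557044. Only the farthest carried H3K27ac. It spans 34732530 to 34749149, was wholly covered by mESC-2i peaks, and is the seventh largest region by total signal. H3K27me3 was called over it in GAS and in no other differentiated type, and mESC-ser had no H3K27me3 peak in the whole 100 kb on either side of the gene.

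**Figure D4:**
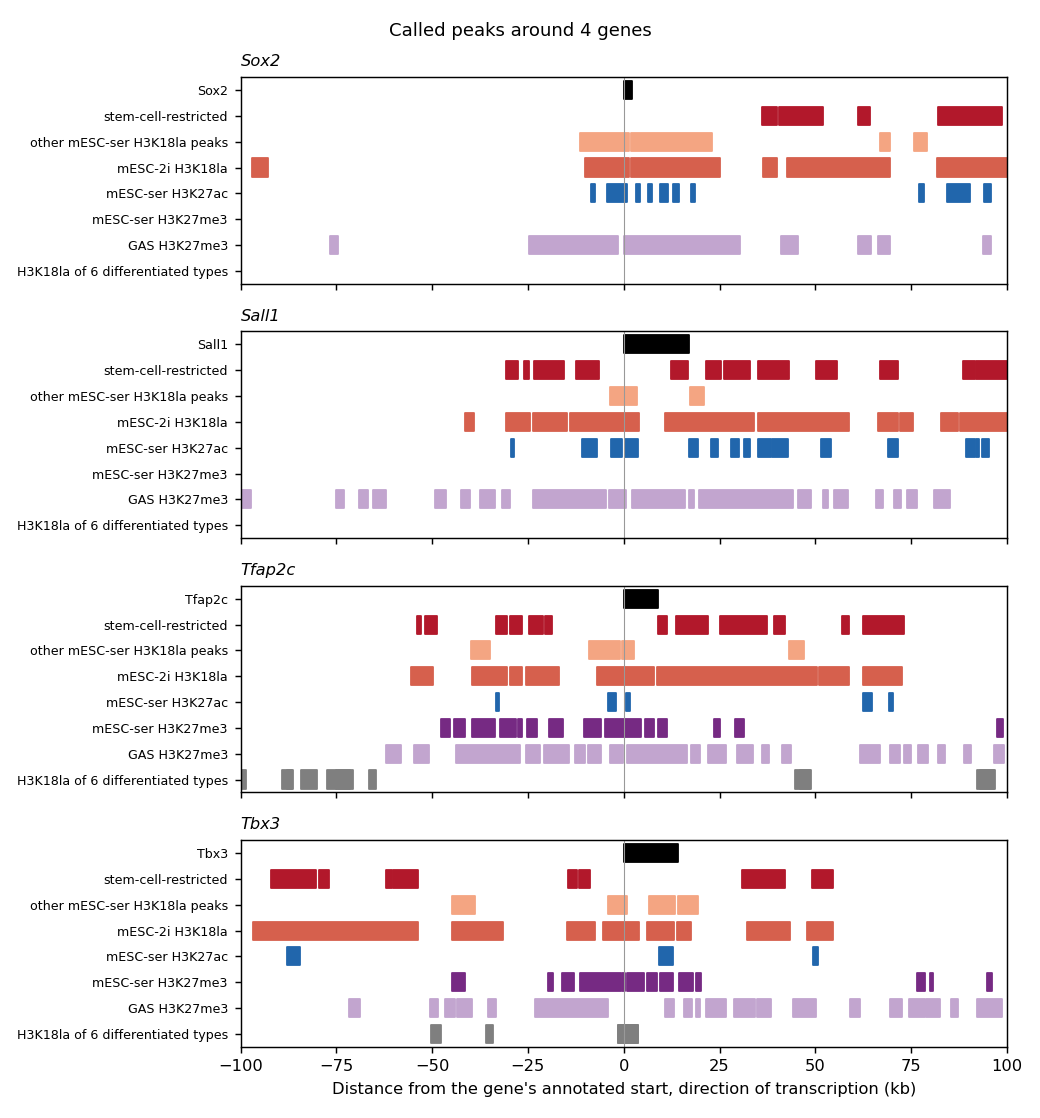
Called peaks within 100 kb of the annotated starts of Sox2, Sall1, Tfap2c and Tbx3 (x axis, kb from the start in the direction of transcription). Each row of boxes is 1 set of peaks. Stem-cell-restricted regions (red) lie on both sides of Sall1, Tfap2c and Tbx3 and downstream of Sox2, with H3K27ac over many of those at Sall1 and H3K27me3 of mESC-ser over many of those at Tfap2c.

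The other lists were read in the same way, beside the 11.6% of all genes with a region. Chromatin and DNA methylation genes were nearest to a region in 10 of 18 cases (55.6%). H3K27ac was called at 9 of their 22 regions (40.9%), against 35.0% of all regions. Smarcad1 had 6 regions, and Rybp, of Polycomb repressive complex 1, had 2, both with H3K27ac. Among genes of Polycomb repressive complex 2 and its partners, Jarid2 had 4, Mtf2 had 3, and Suz12, Eed and Ezh2 had 1 each. The region of Suz12, 5334 bp from its TSS, had a total signal of 390643 with H3K27ac. Genes of signalling had 7 of 24 (29.2%), with H3K27ac at 2 of their 14 regions. Smad7, a brake on TGF-beta signalling, led with 4, and Bmp4, a ligand, had 3. Axin2 and Tcf7l1, both of the WNT pathway, had 2 each. Both Axin2 regions carried H3K27me3 in mESC-ser and 1 carried H3K27ac. Formative and primed genes had 3 of 11 (27.3%), Etv5 with 3, Lef1 with 2 and Cdh2 with 1. Glycolysis and lactate genes had 4 of 20 (20%), Pfkp with 2 and Slc2a3, Slc2a1 and Hk1 with 1.

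Genes of other lineages are set beside the 11.6% of all genes with a region. Germ-layer regulators had 5 of 18, with 6 regions at Sox1, a neural factor, 2 at Neurog1, and 1 each at Cdx2, Pax6 and Gsc. All 6 of the Sox1 regions had H3K27me3 in a differentiated type, and 1 had H3K27ac in mESC-ser. Muscle genes had 2 of 13 (15.4%, Ttn and Des), macrophage genes 1 of 12 (8.33%, Tlr4) and adipocyte genes 0 of 11. A nearest gene need not be the gene that a region acts on.

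Promoters of the nearest genes exceeded those of all genes in H3K18la most in mESC. Of the 2415 nearest genes, 52.0% had a H3K18la peak over the promoter in mESC-ser and 61.2% in mESC-2i, where 34.4% and 38.8% of all protein-coding genes had one. Genes nearest to mESC-ser-only peaks had 52.1% and 50.2%, and those nearest to shared peaks 60.7% and 65.1%, so the excess was not limited to genes near the regions. In the differentiated types their shares stood close to those of all genes, for example 39.9% against 37.0% in GAS and 46.3% against 45.6% in ADIPO. Genes nearest to shared peaks lay above all genes there too, with 62.2% in GAS. H3K27me3 was called over 32.5% of the promoters nearest to a region in GAS, 39.6% in PIM and 33.0% in mESC-ser, against 23.7%, 26.99% and 27.6% of all genes. In mESC-2i the shares were 22.9% and 23.1%. Promoters nearest to mESC-ser-only peaks had higher shares, 35.9% in GAS, 42.7% in PIM, 40.3% in mESC-ser and 34.5% in mESC-2i.

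**Figure D5:**
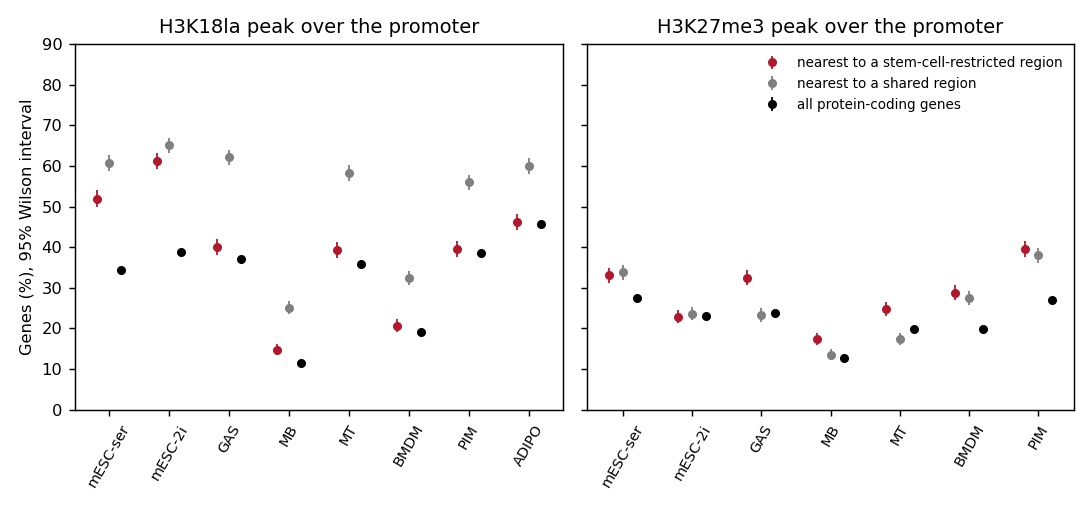
Share of genes with a H3K18la (left) or H3K27me3 (right) peak within 2000 bp of a TSS (y axes, %) by cell type (x axes). Points are genes nearest to a stem-cell-restricted region, genes nearest to a shared region and all protein-coding genes, with 95% Wilson intervals. For H3K18la the first set stands at 52.0% against 34.4% of all genes in mESC-ser and at 39.9% against 37.0% in GAS.

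Some regions formed clusters. With neighbours joined across gaps of at most 10 kb, 264 regions (7.40%, 6.59 to 8.31) lay in 79 clusters of 3 or more, 339 clusters were pairs and 2625 regions stood alone. The share was 4.63% with gaps of at most 5000 bp and 22.3% with gaps of at most 50000 bp, and 3.62% for peaks at or above the median total signal of the list. The share in clusters was 2.18% for the 1560 mESC-ser-only peaks and 14.6% for the 4357 shared ones. The classes differ in number, and its part in these shares was not tested. Members of clusters carried H3K27ac in 37.1% of cases (31.5 to 43.1), and lone regions in 34.5% (32.7 to 36.4).

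The largest cluster, of 6 regions, lay before Smarcad1 on chromosome 6 from 64997504 to 65035358 and covered 29392 of 37855 bp. Its strongest region had a total signal of 486556 and its weakest 25439. Clusters of 5 lay at Sall1 (chromosome 8, 88988431 to 89031702, 4 regions with H3K27ac) and on chromosome 7 from 3191518 to 3215417. The latter ends 3209 bp from Mir290a, first of a cluster of microRNAs abundant in mESC. Clusters of 5 also lay between Dcbld1 and Gopc on chromosome 10, near Sox1 on chromosome 8, and at Bcat1 and Lrmp on chromosome 6 from 145081400 to 145107465, where no region had H3K27ac. The cluster near Sox1 had H3K27ac at none of its regions, H3K4me3 of mESC-2i at 2, and H3K27me3 of a differentiated type at all 5.

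The 10 regions with the largest total signal all carried H3K27ac in mESC-ser. The largest by far lay on chromosome 11 from 33516108 to 33546694, 2362 bp from Ranbp17. Its total signal was 1555581, and it was followed by the region at Mir290a with 931356. Next came an intronic region nearest to Slit3 (847220, 145681 bp from a coding TSS) and one over an exon, 11782 bp from Scpep1 (653576). One nearest to Fam53a followed (638865, 84671 bp away). The Fam53a region had all 3 other marks in mESC-ser and H3K27me3 in all 5 differentiated types. The rest were nearest to Uqcrb (613784), Sox2 (557044), Cbfa2t2 (523645), Smarcad1 (486556) and Mgat5b (476437). That of Uqcrb lay 185512 bp from it and 7541 bp from the pseudogene Zfp640, and that of Sox2 lay 82125 bp away. H3K4me3 of mESC-ser was called at those nearest to Ranbp17, Slit3, Fam53a, Uqcrb and Cbfa2t2.

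By maximum signal the order was another. The highest, 1032, belonged to a region of 1178 bp on chromosome 13 near the pseudogene Gm48220, from 65990635 to 65991812. The region near Ranbp17 followed with 533, and then came a region of 486 bp on chromosome 14, 22658 bp from Fam107a, with 505 but a total signal of 75516. The next, nearest to the zinc finger gene Zfp808 (449, 33627 bp away) and Uqcrb (418, 185512 bp away), were on chromosome 13 again. Thus 3 of the 5 lay there.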

How the data were processed

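The authors trimmed the CUT&Tag reads, aligned them to mm10 with Bowtie2 and pooled the replicates of each group into 1 fragment coverage track. SEACR (stringent, top 1% of regions) called the deposited peak lists, whose values are total and maximum signal, not scaled for depth. Per the submitters' processing notes the versions were Bowtie2 2.4.4, SEACR 1.3, SAMtools 1.13, bedtools 2.30, Trim Galore 0.6.6 and FastQC 0.11.0. The lists hold no read totals, and the study's table of reads per sample was not used here. The handling of duplicates is not given in the sources used here.

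From the 24 lists, overlaps of at least 1 bp, gaps to GENCODE vM21 starts and clusters were computed on chromosomes 1 to 19 with Python 3.11.15, numpy 2.4.6, pandas 2.3.3, scipy 1.17.1 and matplotlib 3.10.9, after checks on simulated data. Sequences came from RefSeq GRCm38.p6. The members and gene lists were chosen with earlier results of these data known. Named were the 10 regions with the largest total and the 5 with the largest maximum signal, the 5 largest clusters, the 10 genes nearest to the most regions, up to 4 genes of each list, and 7 pluripotency genes whatever their counts. Suz12, Eed and Ezh2 lie outside this rule and were named after their values were seen. Gsc and the cluster at Bcat1 and Lrmp lie outside it too. Windows were shown for the core and naive genes with the most regions.

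Alternatives changed the promoter definition, the strength of peaks, the joining distance, the window and the set of differentiated lists, 1 at a time.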

Additional observations from a re-analysis of the deposited data

Results flagged for a closer look

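H3K27ac was called at 10.2% of the regions in GAS, which stood apart from BMDM (0.112%), PIM (0.533%) and ADIPO (0.477%) by more than Dixon's limit for 4 values. The GAS list covered 196.4 Mb, and its part in the value was not tested. Chance flags about 1 in 20 groups, and 2 sets of cell types were examined.

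On chromosome X, which the rule left out, 79 of 295 mESC-ser H3K18la peaks met the other conditions, and 16 of them carried H3K27ac (20.3%, interval 12.9 to 30.4). Of all 148 distal peaks of that chromosome, 36 carried it (24.3%, interval 18.1 to 31.8).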

How the results depend on the processing

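No paired analysis was possible because replicates were pooled before peak calling, which leaves no replicate numbers to match. The sign-flip tests compare 2 classes of peaks within each cell type. Of 160 comparisons with an alternative, 27 moved and 0 reversed. The others moved by less than the error of a share or of the median distance or by at most 1.5 times for a count, or belong to the 3 permutation tests, which cannot go below 0.05 at any setting, so that their unchanged side says nothing about stability. Where a value moved, the cause was not tested. With starts of protein-coding transcripts alone, H3K27ac was at 37.5%, H3K4me3 at 8.77%, and H3K27me3 at 8.27% of regions in mESC-ser, H3K4me3 at 24.7% in mESC-2i, and 9.92% lay in clusters. With peaks at or above the median total signal, 1712 regions were left, with H3K27ac at 55.3%, H3K4me3 at 10.3% (mESC-ser) and 29.1% (mESC-2i), H3K27me3 of mESC-2i at 4.09% and 3.62% in clusters. Over the 300 bp window, an alternative chosen after seeing the data, H3K27ac was at 31.5%, H3K27me3 at 5.72% (mESC-ser) and 1.35% (mESC-2i), and H3K4me3 of mESC-2i at 20.04%. Joining across 5000 bp or 50000 bp put 4.63% or 22.3% in clusters.

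The number of regions was 2471 with no peak of another type within 5 kb, 2829 and 3875 with promoters of 5000 and 1000 bp, 4436 with coding starts alone, and 2610 where a mESC-2i peak itself had to be distal and free of the other lists (chosen after seeing the data). Leaving out 1 differentiated list at a time gave 3592 to 3977 regions, H3K27ac at 34.8% to 35.7%, H3K4me3 at 7.01% to 7.19% (mESC-ser) and 22.6% to 22.9% (mESC-2i), H3K27me3 at 7.06% to 7.39% and 2.80% to 3.00%, and 7.35% to 8.20% in clusters. The H3K27me3 difference from mESC-ser-only peaks ranged from -3.77 to -3.39 points, that of H3K27ac from -0.36 to -0.03, and the log2 difference from -0.96 to -0.92. Over all alternatives the first ranged from -5.56 (peaks at or above the median signal) to -3.06 (the window), with an exact permutation p of 0.0625 in each. The second ranged from -0.44 to -0.03 with an exact permutation p of 0.25 to 1, and the log2 difference from -1.27 to -0.80. When all annotated genes could be nearest, Mir8110 led with 8 regions and 2 of the 10 leading genes were shared. Whole peaks were over 50% masked in 16.1% of regions, against 30.2% of windows. The lists give no depth, and 1 pooled list a group limits every comparison to cell types.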

Other observations

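Among the coding genes nearest to several of the 79 chromosome X regions were Pja1 with 4, and Dmd, Gm26992, H2afb1 and Bcor with 3 each. Bcor encodes a subunit of a variant Polycomb repressive complex 1. H3K27ac was called at 1 region each of Pja1, Dmd and Bcor, at 2 of Gm26992 and at 0 of H2afb1.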
